A study of Mus musculus with 12 samples.

Results

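The cadherin and protocadherin superfamily was described in primary brain endothelial cells (BECs) of mice with and without cortistatin. Members were the genes whose symbol is a numbered *Cdh*, a *Pcdh*, *Fat1* to *Fat4*, *Dchs1* or *Dchs2*, or *Celsr1* to *Celsr3*, leaving out *Cdh1* and *Cdh5*, and this gave 97 of the 32419 genes in either expression table. All 97 were listed under normoxia and normoglycemia (NX/NG) and 94 under OGD-R, in which oxygen and glucose are withdrawn and oxygen then restored. The BECs came from the brains of adult C57BL/6 mice, *Cort*+/+ or *Cort*-/-, with each culture pooled from 3 animals, and GEO's labels give every sample, controls included, the disease state of a middle cerebral artery occlusion model. NX/NG cultures were kept for 24 h at 21% O2 and 5.5 mM glucose, and OGD-R cultures for 4 h at 1% O2 without glucose or serum and 20 h at 21% O2 and 5.5 mM glucose. RNA-seq libraries with values were 3 *Cort*+/+ and 2 *Cort*-/- in each environment, numbered 1 and 2 for *Cort*-/- under NX/NG and 1 and 3 under OGD-R. The values are RPKM, reads scaled by the authors for gene length and library size, with each environment scaled on its own. Reads recovered from the RPKM came to 12386048 to 12390428 on genes per library. The sources do not say why these totals are so close, and they are not reported sequencing depths.

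Cadherins are calcium-dependent adhesion molecules of the plasma membrane. Classical cadherins bind like molecules on the neighbouring cell and hold the actin cytoskeleton through catenins, and in endothelium VE-cadherin (*Cdh5*) is the best known of them. Protocadherins bind more weakly and signal through other partners, the giant cadherins Fat4 and Dachsous form a receptor and ligand pair of the Hippo pathway, and the Celsr proteins carry planar cell polarity.

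BECs expressed a minority of the superfamily. Of the 97 members, 41 had a mean of at least 1 RPKM in at least 1 of the 4 groups, and 22 of these were the γ-protocadherins treated separately below. Another 37 reached 0.1 to 1 RPKM in their highest group, 10 stayed below 0.1 RPKM, and 9 had at most 3 reads in every library. Those 9 were *Cdh8*, *Cdh9*, *Cdh12*, *Cdh15*, *Cdh19*, *Cdh20*, *Cdh22*, *Pcdh8* and *Pcdhb11*, and *Cdh8*, *Cdh12* and *Pcdh8*, which were listed under NX/NG alone, had at most 1 read in each library there. Members with a position in GENCODE vM21 lay on 14 chromosomes, 59 of them on chromosome 18, which holds the 3 protocadherin clusters. *Pcdha10*, of the α cluster, had no position there and is not in that count.

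Outside the γ cluster, whose values share reads, the order of levels, compared per length of gene and as means over the 10 libraries, was led by *Fat1*, an atypical cadherin that regulates actin and the Hippo pathway, at 42.6 RPKM. *Pcdh1*, a δ1-protocadherin of epithelia and vessels, followed at 34.7 RPKM, then *Cdh13* (T-cadherin, which has a lipid anchor instead of a cytoplasmic tail and binds adiponectin) at 32.4 and *Cdh11* (a type II cadherin typical of mesenchymal cells) at 27.5 RPKM. These 4 did not separate beyond their spread, since *Fat1* ranged from 29.4 to 59.3, *Pcdh1* from 24.1 to 44.8, *Cdh13* from 25.2 to 41.1 and *Cdh11* from 12.4 to 35.1 RPKM. A second tier held *Pcdh7*, a δ1-protocadherin, at 15.3 RPKM (12.8 to 17.6) and *Cdh2*, the N-cadherin that joins endothelium to pericytes, at 12.7 RPKM (9.67 to 17.3), and these ranges overlapped as well. Below them came *Pcdh19* (6.43), *Dchs1* (5.66), *Fat4* (5.54), *Pcdh12* (4.16), *Pcdhb17* (3.93), *Pcdh18* (2.52) and *Cdh6* (2.00 RPKM). *Pcdhb22*, *Cdh26*, *Pcdh9*, *Cdh24*, *Pcdhb16* and *Pcdhb18* ended the list between 1.57 and 0.983 RPKM. For scale, *Cdh5*, which is no member, lay between 443 and 740 RPKM in the 10 libraries.

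**Figure D1:**
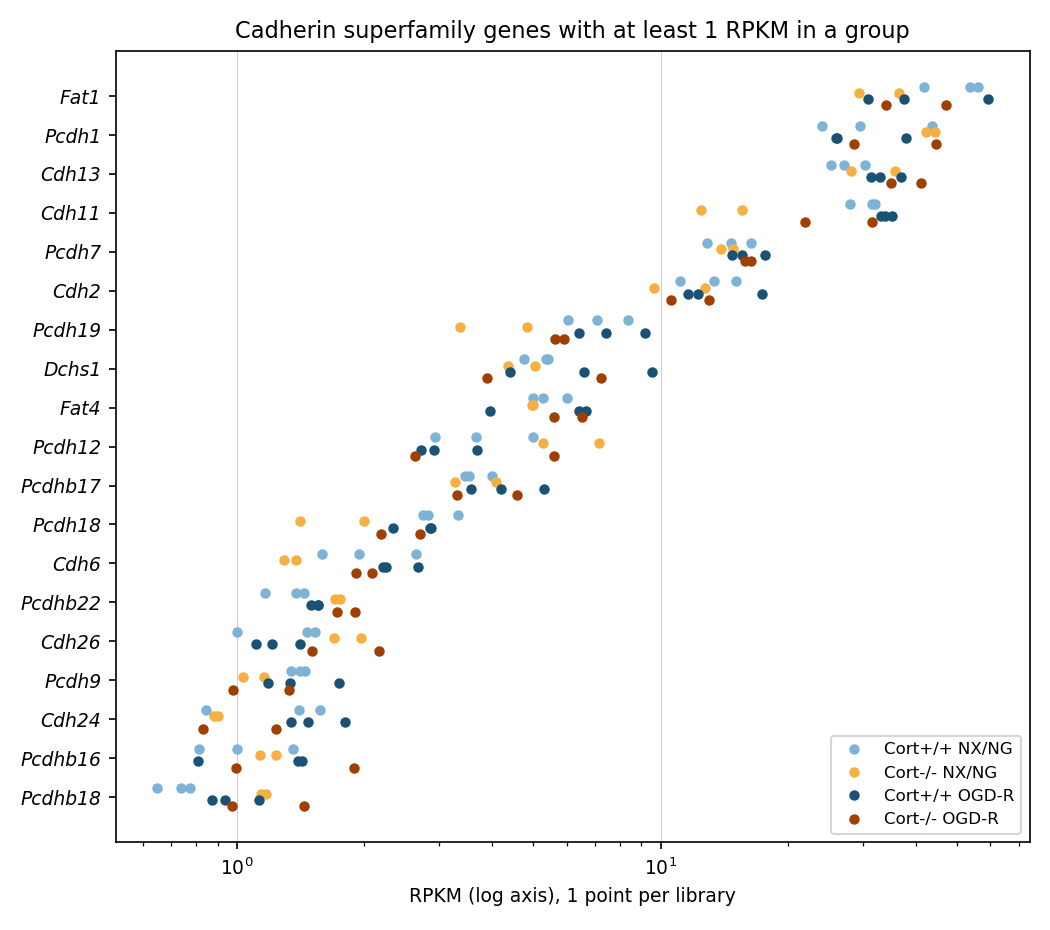
RPKM on a log axis for the 19 members with a mean of at least 1 RPKM in a group, the γ cluster left out; each point is 1 of the 10 libraries, coloured by genotype and environment. *Fat1*, *Pcdh1*, *Cdh13* and *Cdh11* share the top of the range between 12.4 and 59.3 RPKM, and the orange *Cort*-/- NX/NG points of *Cdh11* stand to the left of all others of that gene.

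Markers were checked against the labelled cell type. The sum of 10 endothelial markers was between 1100 and 1580 RPKM over the libraries, whereas neuronal markers reached at most 1.06, oligodendrocyte markers 0.631 and astrocyte markers 0.323 RPKM. Smooth muscle markers summed to 995 to 1777 RPKM, most of it *Acta2* and *Tagln*, which cultured endothelial and mesenchymal cells can also express. For *Cort* itself, the 3 *Cort*+/+ libraries under NX/NG held 2, 1 and 1 reads, 1 *Cort*+/+ library after OGD-R held 1, and all others, *Cort*-/- included, held 0, too few to check the labels. Reads of *Rn18s-rs5*, a ribosomal RNA gene, made up between 7.64% and 15.8% of 8 libraries. After OGD-R the share was 0.0951% for *Cort*-/- replicate 3 and 0.0775% for *Cort*+/+ replicate 1. Epithelial markers summed to 71.7 RPKM in *Cort*+/+ replicate 2 under NX/NG and 50.3 RPKM in *Cort*-/- replicate 1 after OGD-R, and to at most 22.4 RPKM elsewhere.

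The first comparison asked how the superfamily differed between *Cort*-/- and *Cort*+/+ BECs under NX/NG. Among members outside the clusters, *Cdh11*, *Pcdh18*, *Pcdh19* and *Fat1* were lower in *Cort*-/- BECs and *Pcdh12* was higher, each at an unadjusted p under 0.05, and the γ-protocadherins were lower by a small and almost identical amount. By limma, 0 of 97 members passed an FDR of 0.05, as did 0 of 29965 genes (0%). At an unadjusted p under 0.05 there were 28 members, 2 higher and 26 lower, against 8.39% of all genes tested, 3.56% higher and 4.82% lower. Of the 26 that were lower, 22 were γ-protocadherins, which share reads and are close to a single measurement. Without the α and γ clusters the count was 6 of 61 members (9.84%), a share near that of all genes. By limma-voom on reads recovered from the RPKM, 33 members had an unadjusted p under 0.05 (11.0% of all genes) and 1 member, *Cdh11*, passed an FDR of 0.05 (0.390% of all genes). When the mean level had to reach 1 RPKM, 5 of 18 members outside the γ cluster had a p under 0.05, against 13.4% of genes.

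*Cdh11*, named cadherin-11 or OB-cadherin, mediates adhesion between mesenchymal cells. The gene lies at chr8:102632095-102785642 in GRCm38 (GENCODE vM21). Its level was 31.5, 32.1 and 28.0 RPKM in *Cort*+/+ against 15.6 and 12.4 in *Cort*-/- BECs under NX/NG. The groups did not overlap, and the highest *Cort*-/- value was below the lowest *Cort*+/+ value by more than either group's own range. The log2 fold change was -1.13 (SE 0.12, limma FDR = 0.108) on the log2(RPKM + 0.1) scale, and the limma-voom FDR was 0.00216. The direction and an unadjusted p under 0.05 were kept in all 11 alternative settings, with values between -1.29 and -0.97.

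*Pcdh18* and *Pcdh19* are δ2-protocadherins, whose cytoplasmic part recruits the WAVE complex that builds branched actin. *Pcdh18* was 2.83, 3.32 and 2.75 RPKM in *Cort*+/+ against 1.99 and 1.41 in *Cort*-/- BECs. *Pcdh19*, an X-linked gene known for a form of epilepsy, was 8.38, 7.09 and 6.05 RPKM in *Cort*+/+ against 4.84 and 3.37 in *Cort*-/- BECs. In neither gene did the groups overlap, and replicate 2 was the lower of the pair of *Cort*-/- libraries in both, as it was for *Cdh11*. The log2 fold changes were -0.78 (SE 0.19, limma FDR = 0.375) and -0.80 (SE 0.21, limma FDR = 0.410). By limma-voom the FDRs were 0.0855 and 0.0753. With the replicate number as a block, the limma p of *Pcdh18* was no longer under 0.05. Without *Cort*-/- replicate 2, the value of *Pcdh19* was -0.54 and its limma p no longer under 0.05.

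The sequences upstream of this δ2 pair are shown because the 2 genes, on different chromosomes, were both lower in *Cort*-/- BECs under NX/NG. *Cdh11* and *Fat1* were lower there too, and a common regulation of the pair was not tested. They are the 250 bases before the RefSeq start on the transcribed strand in GRCm38.p6, for *Pcdh18* at chr3:49757317-49757566 (minus strand) and for *Pcdh19* at chrX:133688994-133689243 (minus strand). Capitals mark a GC box (GGGCGG on either strand) and a longer run around a CCAAT box.
Pcdh18: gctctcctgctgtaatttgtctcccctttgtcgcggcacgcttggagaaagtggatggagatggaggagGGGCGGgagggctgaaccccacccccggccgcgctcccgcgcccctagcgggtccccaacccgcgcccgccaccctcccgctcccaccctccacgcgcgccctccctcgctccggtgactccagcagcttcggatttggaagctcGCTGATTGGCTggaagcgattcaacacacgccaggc
Pcdh19: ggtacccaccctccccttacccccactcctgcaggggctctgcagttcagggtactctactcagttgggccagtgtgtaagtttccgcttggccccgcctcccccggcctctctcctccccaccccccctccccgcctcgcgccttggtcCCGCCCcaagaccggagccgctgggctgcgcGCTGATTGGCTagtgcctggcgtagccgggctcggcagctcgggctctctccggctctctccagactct

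Both windows were rich in G and C, at 68.0% and 69.2% against a median of 52.4% over 32851 windows of the same length. Both held a GC box, as did 32.7% of all windows, and neither held the TATA box TATAAA (12.4% of windows) or the E-box CACCTG (17.2%), both strands searched. Both held the same longer run in capitals, which contains CCAAT read on the other strand. CCAAT stood in 33.8% of all windows and the longer run in 0.42%, on either strand, and the longer run was picked after the sequences were seen. RefSeq windows were matched for 28 members.

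*Fat1* was 53.8, 56.2 and 41.7 RPKM in *Cort*+/+ against 36.5 and 29.4 in *Cort*-/- BECs under NX/NG. All *Cort*-/- values were below all *Cort*+/+ values, though the nearest pair lay closer than the range within *Cort*+/+. The log2 fold change was -0.61 (SE 0.17, limma FDR = 0.437, limma-voom FDR = 0.0750). Without *Cort*-/- replicate 2 it was -0.46 and the limma p was not under 0.05. The other expressed giant cadherins, *Fat4* and its ligand *Dchs1*, had no unadjusted limma p under 0.05. Their log2 fold changes were -0.12 (SE 0.10) and -0.14 (SE 0.10), and *Dchs2*, *Fat2* and *Fat3* stayed below 0.1 RPKM.

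*Pcdh12*, also known as VE-cadherin-2 and largely restricted to endothelium, went the other way. It was 3.68, 2.93 and 5.01 RPKM in *Cort*+/+ against 5.28 and 7.16 in *Cort*-/- BECs, so that the highest *Cort*+/+ library lay just under the lower *Cort*-/- library. The log2 fold change was 0.69 (SE 0.26, limma FDR = 0.580), and the p was no longer under 0.05 in 6 of 11 alternative settings. *Pcdh1* had a log2 fold change of 0.46 (SE 0.25) and overlapping groups, at 29.6, 24.1 and 43.6 RPKM in *Cort*+/+ against 42.3 and 44.3 RPKM in *Cort*-/- BECs. *Cdh5*, outside the rule, had a log2 fold change of 0.34 (SE 0.17, limma FDR = 0.681).

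**Figure D2:**
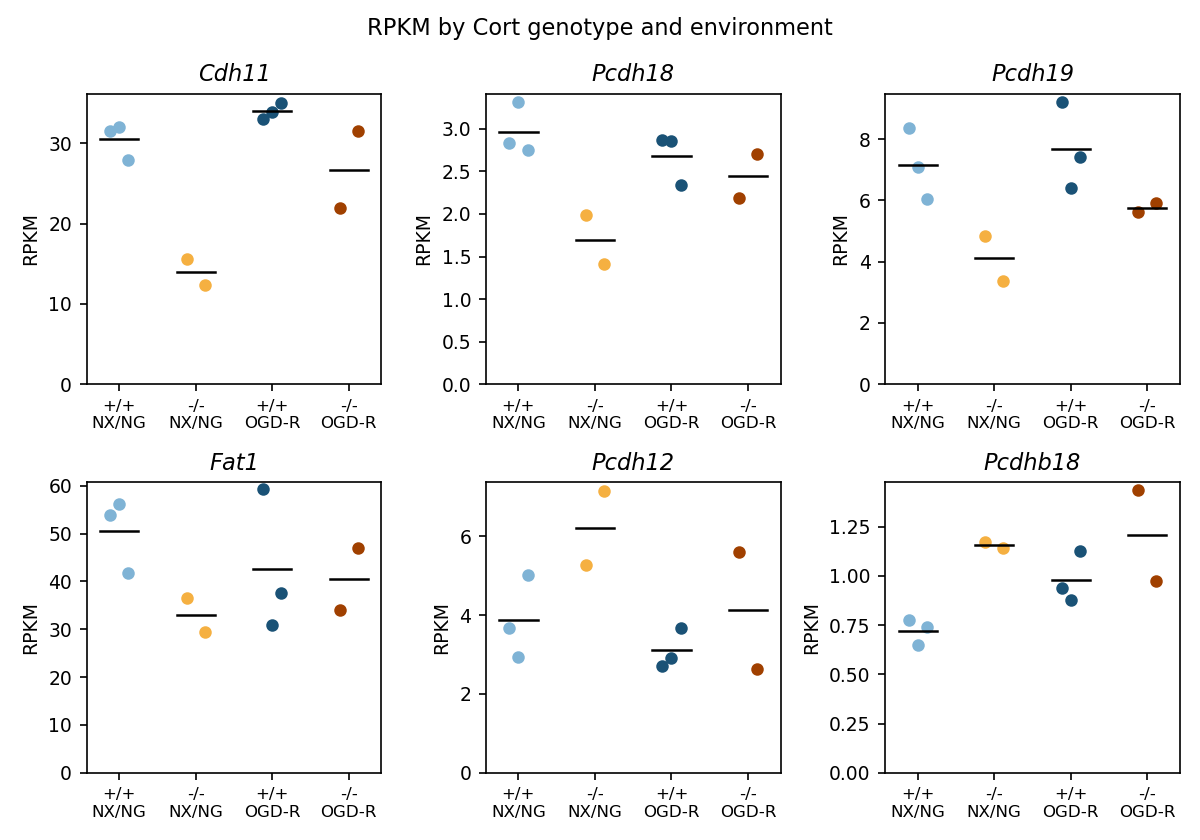
RPKM (linear axis from 0) of *Cdh11*, *Pcdh18*, *Pcdh19*, *Fat1*, *Pcdh12* and *Pcdhb18* in the 4 groups; each point is 1 library and the line is the group mean. Under NX/NG the *Cort*-/- points are below all *Cort*+/+ points for the first 4 genes and above them for the last 2, and under OGD-R the groups overlap in *Pcdh18*, *Fat1*, *Pcdh12* and *Pcdhb18*.

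The remaining expressed members outside the clusters had no unadjusted limma p under 0.05 under NX/NG. *Cdh6*, a type II cadherin, was 1.94, 2.64 and 1.59 RPKM in *Cort*+/+ against 1.38 and 1.29 in *Cort*-/- BECs (log2 fold change -0.56, SE 0.24, limma FDR = 0.641). *Cdh2* had -0.23 (SE 0.18), *Cdh24* -0.43 (SE 0.30), *Cdh13* 0.20 (SE 0.13) and *Cdh26* 0.45 (SE 0.23). *Pcdh7* differed by -0.02 (SE 0.11) and *Pcdh9* by -0.33 (SE 0.15). Counted by overlap alone, 11 of the 19 members outside the γ cluster that reached 1 RPKM in 2 or more libraries had separate genotypes, 7 lower and 4 higher in *Cort*-/- BECs (57.9%), where 32.7% of all such genes did.

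Transcripts of other cells moved in the same comparison. Of 12 fibroblast and leptomeningeal markers, 8 were lower in *Cort*-/- BECs under NX/NG at an unadjusted p under 0.05 and 0 higher, and their sum was 230 to 325 RPKM in *Cort*+/+ against 97.9 to 143 in *Cort*-/- libraries. Among the defining ones, *Col1a1* and *Col1a2* fell by 1.35 and 1.41 and *Pdpn* by 2.48 on the log2 scale. *Pdgfra* went the other way, at 0.366, 0.319 and 0.320 RPKM in *Cort*+/+ against 0.485 and 0.706 in *Cort*-/- libraries. *Dcn* and *Lum* were at most 1.93 and 0.149 RPKM in any library. Of 7 pericyte markers, 3 were lower, and their sum was 19.4 to 24.4 RPKM in *Cort*+/+ against 9.45 to 12.1 in *Cort*-/- libraries, with *Cspg4* 1.91 and *Pdgfrb* 1.00 lower on the log2 scale. In these bulk cultures fewer cells of a type and less RNA per cell cannot be told apart. The part of fibroblasts and pericytes in the lower *Cdh11*, *Pcdh18*, *Pcdh19* and *Fat1* was not tested. The sum of the 10 endothelial markers was 1100 to 1378 RPKM in *Cort*+/+ against 1407 to 1548 in *Cort*-/- libraries.

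**Figure D3:**
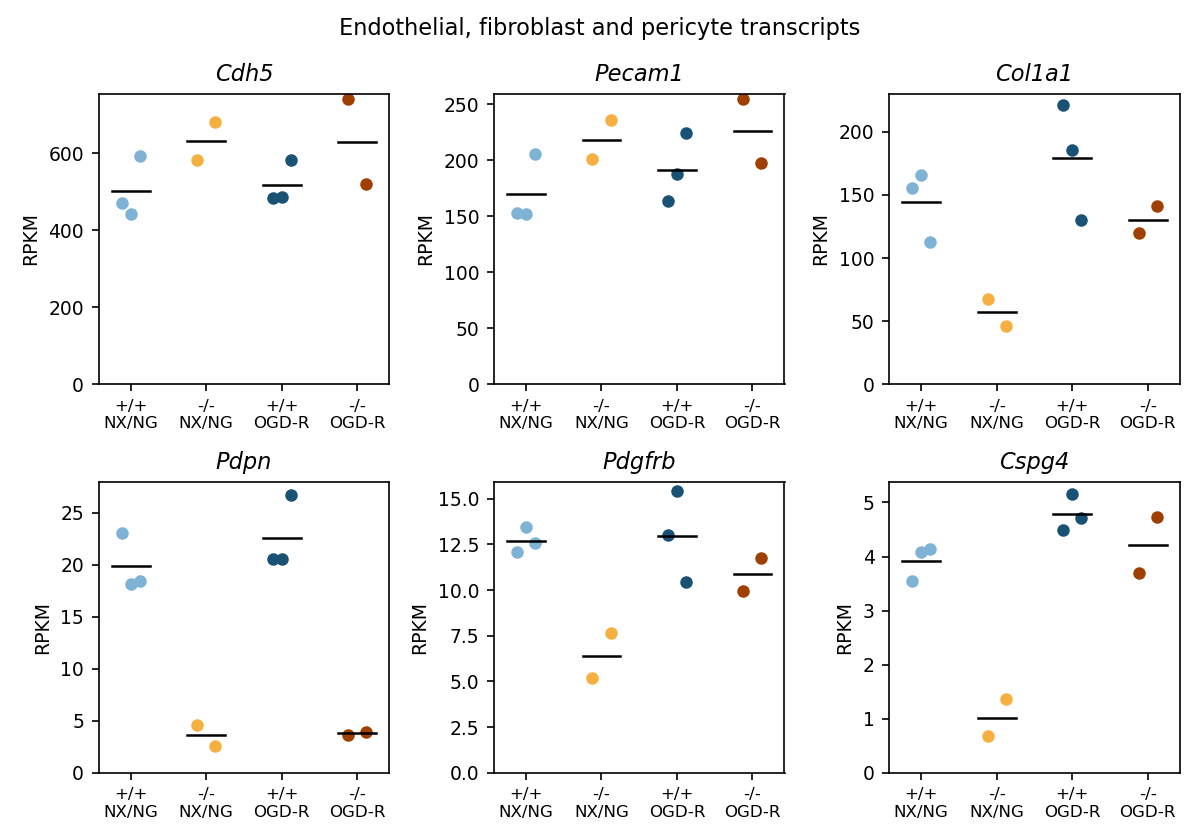
RPKM (linear axis from 0) of 2 endothelial (*Cdh5*, *Pecam1*), 2 fibroblast (*Col1a1*, *Pdpn*) and 2 pericyte (*Pdgfrb*, *Cspg4*) transcripts in the 4 groups, 1 point per library with the group mean as a line. Under NX/NG the *Cort*-/- points of the 4 non-endothelial genes are below all *Cort*+/+ points, and under OGD-R only *Pdpn* keeps so wide a gap between genotypes.

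The clustered protocadherins give neurons a combinatorial surface identity. In the α and γ clusters each gene has its own first exon, which encodes the whole extracellular part, spliced to exons that the cluster shares. β genes are single exons and share none. The files' gene lengths contain the shared exons in each γ gene (2116 bases in GENCODE vM21). Most of the 22 γ genes listed nearly the same number of reads, as counting each read for every gene it overlaps would give. The counting rule is not stated. In each library the lowest γ gene, most often *Pcdhgb8*, had 2275 to 3372 reads. Between 17 and 20 of the 22 genes lay within 5% of that number. What a gene had beyond the lowest one is a lower bound on the reads of its own exon.

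On that measure *Pcdhgc3*, a C-type gene known to be expressed outside neurons, was the main γ-protocadherin of BECs. It had 1219 to 2115 reads beyond the shared ones in the 10 libraries, 57.2% of all such reads on average. *Pcdhga10* came next with 139 to 296 reads (7.58%) and *Pcdhgb2* with 93 to 178 reads (5.11%). The remaining 19 genes each had at most 175 reads of their own. The deposited RPKM of the other γ genes, 23.6 to 56.5, held mostly reads they share, and the summed γ reads were 10.6 to 12.6 times the reads that shared and own parts hold together.

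**Figure D4:**
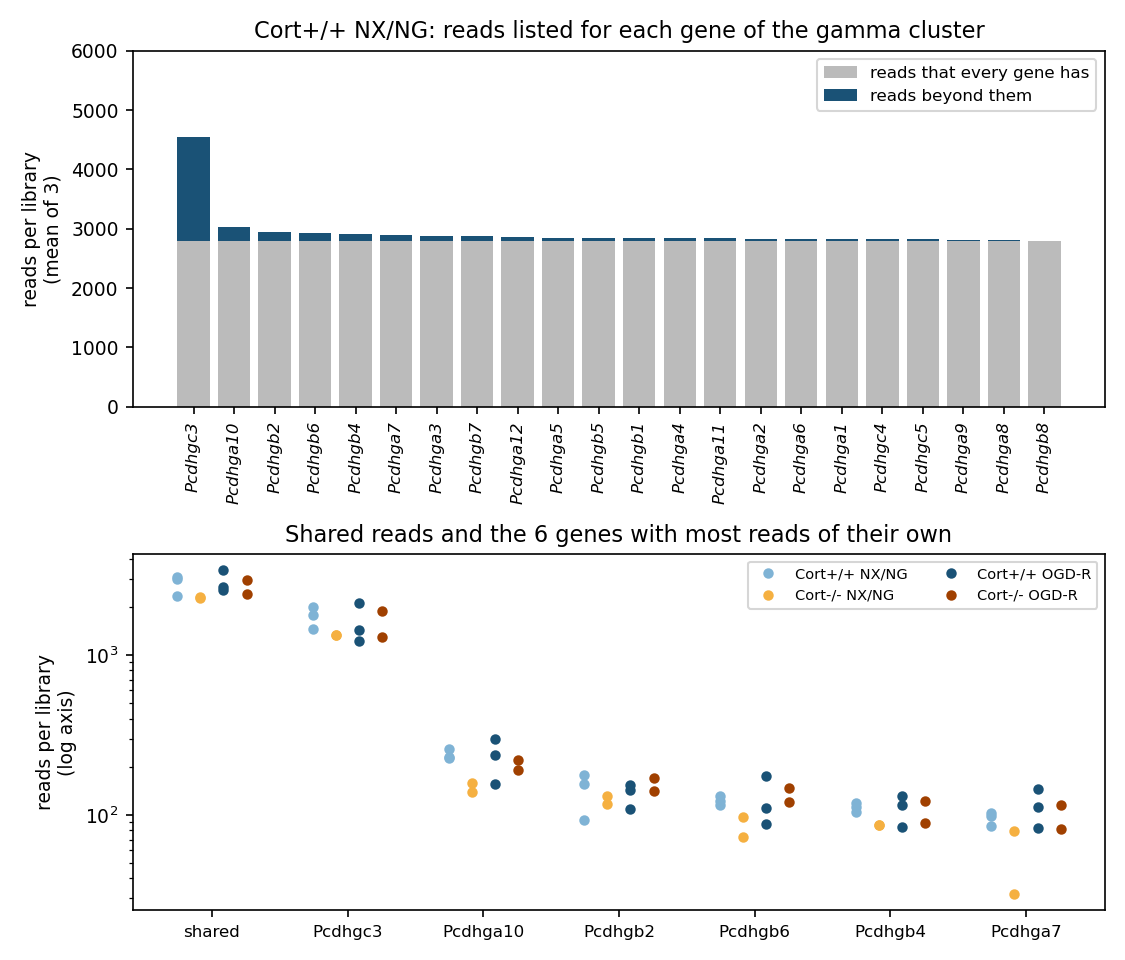
Upper bars: reads listed for each of the 22 γ-protocadherin genes in *Cort*+/+ NX/NG libraries (mean of 3), split into the reads that every gene has (grey) and those beyond them (blue). Lower points: shared reads and the own reads of the 6 leading genes in each library on a log axis, with *Pcdhgc3* at 1219 to 2115 and the other 5 genes at 296 or fewer.

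Under NX/NG, γ-protocadherin RNA was lower in *Cort*-/- BECs, though no value given here passed an FDR of 0.05 by limma. The shared exons stood at 118, 108 and 95.8 RPKM in *Cort*+/+ against 87.1 and 85.0 in *Cort*-/- BECs, and these did not overlap; the log2 fold change was -0.31 (SE 0.10, limma FDR = 0.508). The own reads of *Pcdhgc3* gave 42.8, 45.0 and 37.3 RPKM in *Cort*+/+ against 31.7 and 30.9 in *Cort*-/- BECs, a log2 fold change of -0.41 (SE 0.09, limma FDR = 0.348). Those of *Pcdhga10* gave 7.11, 7.48 and 7.62 against 4.30 and 4.78 RPKM, a log2 fold change of -0.69 (SE 0.08, limma FDR = 0.118, limma-voom FDR = 0.0499). *Pcdhgb2* had overlapping groups and a log2 fold change of -0.17 (SE 0.30). As deposited, the log2 fold changes of the 22 genes ran from -0.35 to -0.31. For *Pcdhgc3* as deposited the limma FDR was 0.410 and the limma-voom FDR 0.0800. Its unadjusted p was under 0.05 in 9 of 11 alternative settings, with log2 fold changes between -0.43 and -0.30. This split of the cluster was chosen after the values were seen.

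The α and β clusters were low. All 14 α genes together with their shared exons had 14 to 29 reads per library, and no α gene exceeded 0.266 RPKM. Their log2 fold changes under NX/NG ran from -0.66 to -0.42, and 0 of 14 had a p under 0.05. Of 21 β genes, 4 reached a mean of 1 RPKM in a group, and the median change was 0.01. *Pcdhb18* alone had a p under 0.05, at 0.777, 0.649 and 0.740 RPKM in *Cort*+/+ against 1.17 and 1.14 in *Cort*-/- BECs (log2 fold change 0.62, SE 0.20, limma FDR = 0.515). The p of *Pcdhb18* was no longer under 0.05 in 3 of 11 alternative settings, among them those without *Cort*-/- replicate 1 and without *Cort*+/+ replicate 2, and its value was 0.33 with a pseudocount of 1. *Pcdhb17*, the highest β gene, differed between genotypes by less than its SE of 0.13.

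After OGD-R, no member passed an FDR of 0.05 between genotypes. *Cdh11* was 33.0, 33.9 and 35.1 RPKM in *Cort*+/+ against 22.0 and 31.5 in *Cort*-/- BECs, again without overlap, with a log2 fold change of -0.37 (SE 0.16, limma FDR = 0.978). By limma, 0 of 94 members and 0 of 29775 genes (0%) passed an FDR of 0.05, and 0 members had an unadjusted p under 0.05, against 3.42% of all genes. By limma-voom, 0 members passed an FDR of 0.05 (0.0168% of all genes) and 6 had an unadjusted p under 0.05 (4.04% of all genes). The 6 were *Cdh11*, *Pcdh19*, *Cdh10*, *Pcdhb3*, *Pcdhb8* and *Pcdhb10*, the last 4 below 1 RPKM in every group. *Pcdh19* was 9.20, 6.42 and 7.42 RPKM in *Cort*+/+ against 5.62 and 5.90 in *Cort*-/- BECs (log2 fold change -0.39, SE 0.17). *Pcdh18* (-0.13, SE 0.18), *Fat1* (-0.04, SE 0.31) and the shared γ exons (-0.14, SE 0.12) had overlapping genotypes or differences within their SE, and *Pcdh12* had 0.31 (SE 0.34). Among members outside the γ cluster that reached 1 RPKM in 2 or more libraries, genotypes did not overlap in 6 of 20 (30.0%), against 16.2% of all such genes. The 6 were *Cdh6*, *Cdh11*, *Cdh24* and *Pcdh19*, lower in *Cort*-/- BECs, and *Cdh26* and *Pcdhb22*, higher.

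The same values were taken within and outside the 2 libraries low in ribosomal RNA, whose part in them was not tested. Between these 2, *Cort*-/- replicate 3 and *Cort*+/+ replicate 1 differed in *Cdh11* by -0.07 on the log2 scale, whereas *Cort*-/- replicate 1 lay 0.65 below the mean of *Cort*+/+ replicates 2 and 3. For *Pcdh19* the same differences were -0.63 and -0.29, for *Fat1* -0.33 and -0.00, and for *Pcdh12* -0.04 and 0.76. Fibroblast markers again differed, with 6 of 12 lower at an unadjusted p under 0.05 and sums of 279 to 389 RPKM in *Cort*+/+ against 218 to 276 in *Cort*-/- libraries, while 1 of 7 pericyte markers was lower. Of 8 epithelial markers 2 were higher in *Cort*-/- BECs, and *Cdh1* itself was at 2.80 RPKM in *Cort*-/- replicate 1 and at most 0.0641 RPKM in the other OGD-R libraries.

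**Figure D5:**
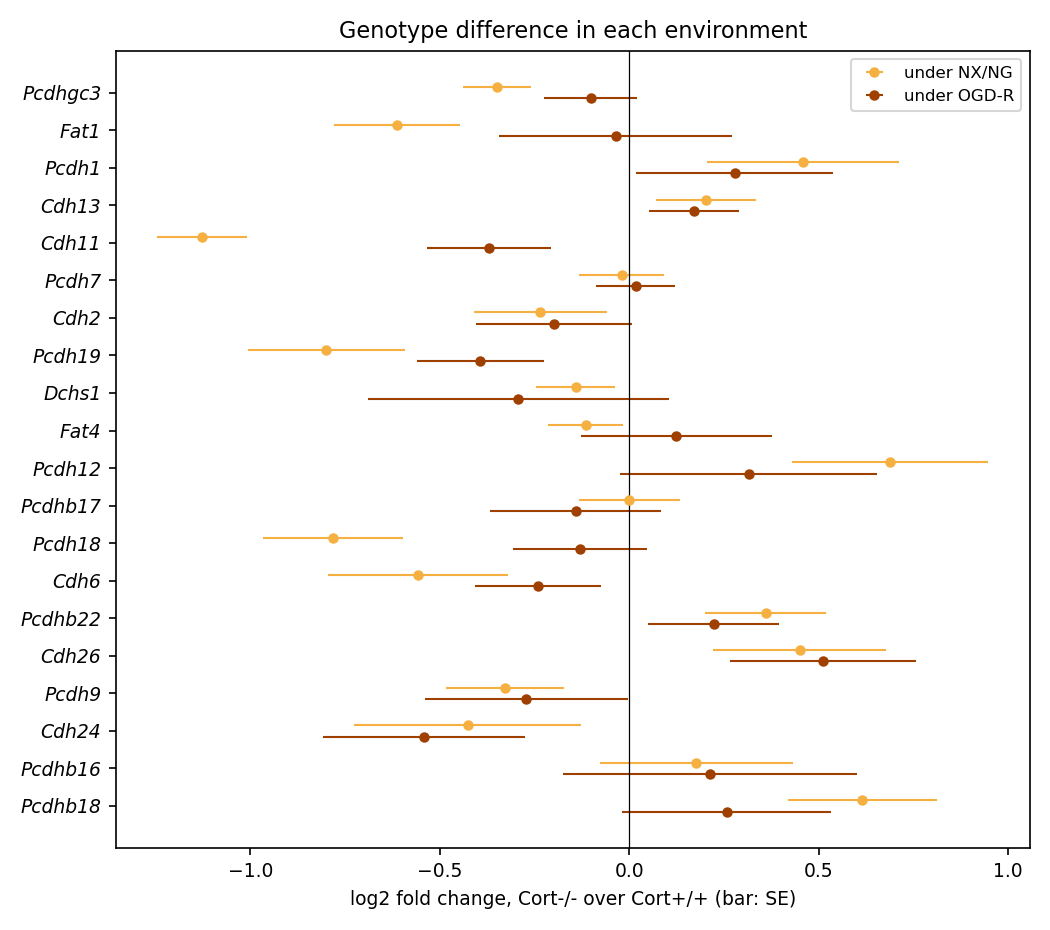
Log2 fold change of *Cort*-/- over *Cort*+/+ with its SE (bars) for the 19 members with at least 1 RPKM in a group and *Pcdhgc3* as deposited, under NX/NG (orange) and OGD-R (brown), from separate libraries. *Cdh11* is at -1.13 under NX/NG and -0.37 under OGD-R, and *Pcdh7* is near 0 in both.

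The interaction of genotype and environment tested whether these differences changed with OGD-R. *Cdh11* and *Pcdh18* had positive interactions, 0.76 (SE 0.22) and 0.65 (SE 0.26) on the log2 scale, so that both were less reduced in *Cort*-/- BECs after OGD-R than under NX/NG. Neither passed an FDR of 0.05 (1 for both by limma). The 2 were the only members of 94 with an unadjusted p under 0.05, against 2.86% of all genes, and 0 members passed an FDR of 0.05, against 0.0110% of all genes; by limma-voom the counts were again 2 (2.71%) and 0 (0%). *Cdh11* kept a p under 0.05 in all 18 alternative settings, and *Pcdh18* lost it in 7. *Fat1* had an interaction of 0.58 (SE 0.39), *Pcdh19* of 0.41 (SE 0.29) and the shared γ exons of 0.17 (SE 0.15). In the same fit, 2 of 12 fibroblast and leptomeningeal markers had a positive and 1 a negative interaction at an unadjusted p under 0.05. Of 7 pericyte markers, 2 had a positive and 0 a negative one. Among the positive ones were *Col1a2* at 1.45 (SE 0.40), *Cspg4* at 1.73 (SE 0.34) and *Pdgfrb* at 0.76 (SE 0.27).

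In *Cort*+/+ BECs, no member passed an FDR of 0.05 between OGD-R and NX/NG. Environments were compared on a common scale set over the 27321 genes that both tables list. By limma, 0 of 94 members passed an FDR of 0.05 (0.0332% of all genes) and 1 had an unadjusted p under 0.05 (5.59% of all genes); limma-voom gave 0 (0.00369%) and 1 (5.54%). That member was *Cdh13*, at 27.7, 25.8 and 30.8 RPKM under NX/NG and 32.1, 30.6 and 36.0 RPKM after OGD-R. Its environments overlapped, and the log2 fold change was 0.23 (SE 0.09, limma FDR = 0.872), with a p no longer under 0.05 in 8 of 14 alternative settings. *Cdh11* changed by 0.09 (SE 0.07). None of the 19 expressed members outside the γ cluster had separate environments (12.9% of all genes did).

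In *Cort*-/- BECs, no member passed an FDR of 0.05 between OGD-R and NX/NG, and *Cdh11* alone had a limma p under 0.05. It stood at 16.0 and 12.8 RPKM under NX/NG and 21.6 and 30.9 RPKM after OGD-R on the joint scale, a log2 fold change of 0.85 (SE 0.22, limma FDR = 0.925). The library at 30.9 RPKM, replicate 3, was the one low in ribosomal RNA. The p was no longer under 0.05 in 4 of 11 alternative settings, with values of 0.59 without OGD-R replicate 3 and with a term for low ribosomal RNA, 1.00 without NX/NG replicate 1 and 0.69 without NX/NG replicate 2. It was the only one of 94 members under that p, against 4.09% of all genes, and 0 members and 0 genes (0%) passed an FDR of 0.05; limma-voom gave 4 (3.98%) and 0 (0%). *Pcdh18* had 0.45 (SE 0.25) and *Pcdh19* 0.44 (SE 0.20), each without a limma p under 0.05. *Pcdh12* had -0.73 (SE 0.42) with 5.42 and 7.38 RPKM under NX/NG and 5.53 and 2.58 RPKM after OGD-R. Environments did not overlap in 6 of 18 expressed members outside the γ cluster (33.3%), all 6 higher after OGD-R, against 33.8% of all genes. The 6 were *Cdh6*, *Cdh11*, *Fat4*, *Pcdh7*, *Pcdh18* and *Pcdh19*. Without *Cort*-/- OGD-R replicate 1, that group is a single library, low in ribosomal RNA. A count of members without replicate 1 rests on that library alone, so no conclusion is drawn from it. This comparison and the genotype comparisons share the *Cort*-/- libraries. Fibroblast (3 of 12) and pericyte (2 of 7) markers were higher after OGD-R in the same fit at an unadjusted p under 0.05, *Col1a1* by 1.15 and *Cspg4* by 1.94 on the log2 scale, and their part in the value of *Cdh11* was not tested.

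Intracellular partners of the superfamily were read against the 8.39% of all genes with an unadjusted p under 0.05 between genotypes under NX/NG. Of 14 catenins and adhesion adaptors 3 had such a p: *Afdn*, the afadin that links nectins to actin, was higher by 0.20 (SE 0.07) on the log2 scale and *Jup*, plakoglobin, by 0.22 (SE 0.08), and *Ctnnal1*, α-catulin, was lower, at -0.51 (SE 0.12). The core catenins had means of 227 RPKM in *Cort*+/+ against 239 in *Cort*-/- BECs for β-catenin (*Ctnnb1*), 110 and 125 for αE-catenin (*Ctnna1*) and 80.0 and 78.4 RPKM for p120-catenin (*Ctnnd1*). Of 13 genes of the Fat and Dachsous pathway 3 were lower: *Yap1*, the Hippo effector, at -0.26 (SE 0.09), its DNA-binding partner *Tead3* at -0.93 (SE 0.21) and *Fjx1*, a Golgi kinase-like protein related to the Four-jointed modifier of Fat and Dachsous, at -0.74 (SE 0.27). Of 10 planar polarity genes 1 was lower, *Dvl3* at -0.38 (SE 0.13), and of 9 WAVE complex genes 1, which had a mean below 1 RPKM over the libraries compared. Among the 11 genes that act in clustered protocadherin choice and the 7 of cadherin cleavage, 0 had a p under 0.05. Of 14 measured relatives outside the rule, *Clstn1*, calsyntenin-1, was higher by 0.50 (SE 0.12) and 1, below 1 RPKM, was lower. None of these genes passed an FDR of 0.05 in limma. After OGD-R, 0 genes of the first 6 lists had a limma p under 0.05 between genotypes, and *Clstn1* was again higher in *Cort*-/- BECs, by 0.55 (SE 0.09, limma FDR = 0.436).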

How the data were processed

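mRNA libraries of BEC cultures were sequenced as paired ends, and the deposited tables give RPKM per gene and library, which the authors computed with their reanalyzerGSE pipeline. Aligner, genome build and counting rule are not given in the sources used here. Of 12 samples, 10 have a column, and 2 *Cort*-/- samples were not analysed here. Columns of the authors' own comparisons and 10 category columns were not used. Whole reads were recovered from the RPKM steps (tolerance 0.05 read) for limma-voom. Genes were fitted with limma 3.58.1 (R 4.3.3, trended empirical Bayes) on log2(RPKM + 0.1), with Benjamini-Hochberg adjustment over all genes tested. Comparisons across environments used the trimmed mean of M values over genes in both tables. The fits were also run on simulated reads, with a common spread for all genes and changes only in genes with many reads. That run cannot show how they treat members with few reads. Promoters are from RefSeq (GRCm38.p6) and gene positions from GENCODE vM21. Members with a mean of at least 1 RPKM in a group were named. Partner genes with a p under 0.05 were named (at most 3 per list) if their mean over all libraries compared was at least 1 RPKM. Members and lists were chosen with earlier results of these data known.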

Additional observations from a re-analysis of the deposited data

How the results depend on the processing

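With 2 or 3 pools per group, a p-value sets the difference between groups against the spread between these pools. That spread was adjusted toward the spread of other genes by the empirical Bayes step. By limma, 0 members passed an FDR of 0.05 in every setting of all 5 comparisons; limma-voom gave 1 under NX/NG.

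Counts of members at an unadjusted p under 0.05 moved more. Shares of all genes were taken only for the main limma fits and limma-voom. Under the other settings a change in members therefore cannot be told from a change in all genes. The γ genes are counted singly in these counts unless stated. Leaving out a *Cort*-/- library leaves 1 library in its group, so the counts without it rest on that library. Of the 28 members between genotypes under NX/NG, 22 were γ-protocadherins, which share reads and can cross the threshold together. Between genotypes under NX/NG (28 members), leaving out 1 library gave 5 to 31, with 6 without *Cort*-/- replicate 1, 5 without *Cort*-/- replicate 2 and 7 without *Cort*+/+ replicate 2, and counting the α and γ clusters once each gave 7. Between genotypes after OGD-R (0), a pseudocount of 1 gave 2, limma-voom 6, a term for low ribosomal RNA 5, a single fit of all 4 groups 4, omission of both libraries low in ribosomal RNA 1, and leaving out 1 library 0 to 5. For OGD-R in *Cort*+/+ BECs (1), a filter at 1 RPKM, quantile normalization and a single fit each gave 0, the ribosomal RNA term 2, and leaving out 1 library 0 to 2. For OGD-R in *Cort*-/- BECs (1), a pseudocount of 1 gave 2, limma-voom 4, the ribosomal RNA term 3, the RPKM as deposited 11, and leaving out 1 library 1 to 16, the 16 without OGD-R replicate 1. For the interaction (2), omission of both libraries low in ribosomal RNA gave 1 and leaving out 1 library 1 to 4. The cause was not tested.

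Of the 6 members refitted after OGD-R with 1 library left out, the genotype difference of 3 changed sign. *Pcdh18* ranged from -0.28 to 0.016 (without *Cort*-/- replicate 1), *Fat1* from -0.27 to 0.23 (0.20 without *Cort*-/- replicate 1, 0.23 without *Cort*+/+ replicate 1) and *Pcdh12* from -0.22 (without *Cort*-/- replicate 1) to 0.85 on the log2 scale.

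The deviations of same-numbered libraries from their group means had correlations from -0.39 to 0.11. Within each *Cort*-/- group these deviations mirror each other, so that a library's correlation is the other's with its sign reversed. The check therefore cannot decide whether the numbers pair the samples. With the replicate number as a block, the counts were 27 and 0 members between genotypes under NX/NG and OGD-R, 1 for OGD-R in *Cort*+/+ BECs and 1 for the interaction. Under the block the p was no longer under 0.05 for *Pcdh18* (-0.83), *Pcdh12* (0.89) and *Pcdhb18* (0.63) under NX/NG and for *Pcdh18* in the interaction (0.69), and it was under 0.05 for *Pcdh1* under NX/NG (0.69). For OGD-R in *Cort*-/- BECs alone no block could be fitted, since its groups share only number 1.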
